A study of Mus musculus with 14 samples.

Results

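The collagen genes and the genes of the enzymes and chaperones that process collagen were followed in mouse hearts with less or more CTRP9, a secreted glycoprotein encoded by C1qtnf9. Members were chosen by symbol: every gene named as a collagen chain, every prolyl 3-hydroxylase, prolyl 4-hydroxylase alpha subunit, lysyl hydroxylase (Plod) and lysyl oxidase, and Serpinh1, Pcolce and Pcolce2. This gave 40 genes of the 13219 measured in the AAV experiment, of which 3 were also among the 1230 genes listed for the knock-out experiment. By role there were 7 fibrillar collagens, 8 basement membrane collagens, 9 other collagens, 6 genes of the proline hydroxylase families, 7 lysine hydroxylases and cross-linking oxidases, and 3 genes for folding and propeptide processing.

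Bulk RNA sequencing was done on hearts of 4 AAV-CTRP9 and 3 AAV-Luc mice, and on hearts of 4 homozygous CTRP9 knock-out mice (KO) and 3 wild-type mice (WT). All mice were fed a high-fat diet (HFD, 60% of energy as fat) for 12 weeks, started at an age of 7 to 9 weeks, and were fasted for 6 h before sacrifice. AAV-CTRP9 and AAV-Luc mice received an AAV9 vector with the C1qtnf9 reading frame or a luciferase, both driven by cardiac troponin T promoter elements, which act in heart muscle cells. KO mice were homozygous for the knock-out, WT mice were littermates, and neither received a vector. The study describes its mice as male C57BL/6J. No mice on control chow were analysed here. The comparisons ask how raising CTRP9 in cardiomyocytes, and losing it altogether, relate to collagen transcripts of the heart under HFD.

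C1qtnf9 was at 109, 67.0, 44.3 and 59.6 CPM (reads scaled to a total of 1000000) in AAV-CTRP9 hearts and at 26.2, 18.8 and 16.0 CPM in AAV-Luc hearts. It had 0, 1, 0 and 2 reads in KO hearts and 481, 497 and 498 reads in WT hearts. The scaled totals behind the CPM values ran between 23626917 and 30262264 reads, and the KO and WT libraries held between 14978278 and 18959587 reads. The AAV-Luc heart Luc_614 stood apart: Spearman's rho between a gene's deviation from its mean and its GC content was 0.52 there and between -0.27 and -0.11 elsewhere (a description over 13219 genes, not over replicates). The members' transcripts had GC contents between 42.6% (Lox) and 61.6% (Col5a3), so the plot of fold changes gives each member also without Luc_614, and the text names the members that moved across an unadjusted p of 0.05 when it was left out. Xist, the RNA of the inactive X chromosome, had 851 and 147 reads in WT libraries WT1 and WT3, 0 in WT4, and 7, 1, 1 and 47 in KO libraries. Male cells make little Xist, so the KO values are also given without WT1 and without WT3. Each of these fits keeps the other library, so a difference in sex or a mixing of samples cannot be told apart from genotype in KO against WT.

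Collagens are built from 3 chains wound into a triple helix, in which glycine recurs in a Gly-X-Y pattern. Before the chains wind, the endoplasmic reticulum hydroxylates some of their prolines and lysines, and the chaperone HSP47 holds the helix. Fibrillar procollagens are then trimmed outside the cell, and lysyl oxidases cross-link the fibrils. Type I and type III fibrils carry the tension of the heart wall and are made largely by cardiac fibroblasts, type IV networks underlie endothelial cells and surround cardiomyocytes, and type VI forms beaded filaments between them.

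The coding sequences show what separates the classes. Each stretch below is the first 90 bases of the longest unbroken run of Gly-X-Y codons, read 5′ to 3′ from the GENCODE M21 transcript on GRCm38. The glycine codon at the head of each triplet is in capitals. Glycine codons at X or Y, as in Col3a1, are in small letters. They are shown for both type I chains and type III, which differed most between AAV-CTRP9 and AAV-Luc hearts among the abundant members, and for a type IV and a type VI chain, which differed less.
Col1a1: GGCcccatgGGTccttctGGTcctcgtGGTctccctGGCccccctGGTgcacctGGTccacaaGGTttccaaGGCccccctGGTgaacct
Col1a2: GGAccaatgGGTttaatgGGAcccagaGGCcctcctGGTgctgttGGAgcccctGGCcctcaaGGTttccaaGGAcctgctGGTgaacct
Col3a1: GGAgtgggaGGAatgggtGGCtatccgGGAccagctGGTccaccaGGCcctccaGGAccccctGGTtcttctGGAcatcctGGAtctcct
Col4a1: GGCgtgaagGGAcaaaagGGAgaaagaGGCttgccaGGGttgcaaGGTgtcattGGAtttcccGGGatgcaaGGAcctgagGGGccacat
Col6a3: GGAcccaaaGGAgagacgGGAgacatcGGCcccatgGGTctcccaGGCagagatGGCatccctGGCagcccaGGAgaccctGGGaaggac
The unbroken run was 338 triplets long in Col1a1, 339 in Col1a2 and 344 in Col3a1. The type V chains Col5a1, Col5a2 and Col5a3 had 338, 339 and 337 triplets, and Col27a1 had 217. In Col4a1 the longest run was 40 triplets, and 22 stretches of 5 or more triplets were broken by other sequence. In Col6a3 it was 45 triplets, in a chain of 3284 codons. The longest run was thus 337 to 344 triplets in the type I, III and V chains, and shorter in Col27a1, Col4a1 and Col6a3. The share of the chain in triplets did not separate Col1a1 from Col4a1 in this way. Stretches of 5 or more triplets held 355 triplets in Col1a1 (1453 codons) and 436 in Col4a1 (1669 codons). The genes shown lie apart in the genome: Col1a1 at chr11:94936224-94953042 on the plus strand, Col1a2 at chr6:4504814-4541544 on the plus strand, Col3a1 at chr1:45311538-45349706 on the plus strand, Col4a1 at chr8:11198423-11312826 on the minus strand, and Col6a3 at chr1:90765923-90843971 on the minus strand. Other members are not all apart: Col5a2, at chr1:45374321-45503282 on the minus strand, lies near Col3a1.

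In AAV-CTRP9 hearts, 32 of the 40 members had a fitted log2 fold change below 0 against AAV-Luc hearts, as did 43.0% of all genes. By limma, 17 of 40 members were lower at an unadjusted p under 0.05, against 4.36% of all 13219 genes, and 0 were higher, against 4.30%. No member passed an adjusted p under 0.05 (Benjamini-Hochberg over 13219 genes), a threshold that 2 genes, or 0.0151%, passed. The smallest adjusted p of a member was 0.163. C1qtnf9, the gene carried by the vector, did not pass either, with an adjusted p of 0.106 from limma at a log2 fold change of 1.73. The AAV-CTRP9 and AAV-Luc hearts did not overlap for 14 members that were lower and for 1 that was higher, against 4.54% and 4.49% of all genes. The median log2 fold change of the members was -0.26, and that of all genes was 0.03. Fewer cells of a type and less RNA per cell cannot be told apart in whole-heart RNA.

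Which members passed depended on the test and on Luc_614. Without Luc_614, limma gave Col1a1, Col1a2, Col3a1 and P4ha1 an adjusted p under 0.05, when 1.13% of all genes passed. DESeq2 on the recovered reads called Col1a1, Col1a2, Col3a1 and Loxl1, and 0.461% of all genes. The edgeR likelihood ratio test, added after the data were seen, called these 4 and Col5a2, and 0.635% of all genes. The edgeR quasi-likelihood test called none of the members. With library totals as the only scaling, all genes at an unadjusted p under 0.05 split into 775 lower and 291 higher, in place of 577 lower and 569 higher, and 20 members were lower. With upper quartile scaling the split was 713 lower and 398 higher, with 19 members lower. With each of these scalings 0 members were higher. The number of members lower at this unadjusted p was between 15 and 20 in every setting run.

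**Figure D1:**
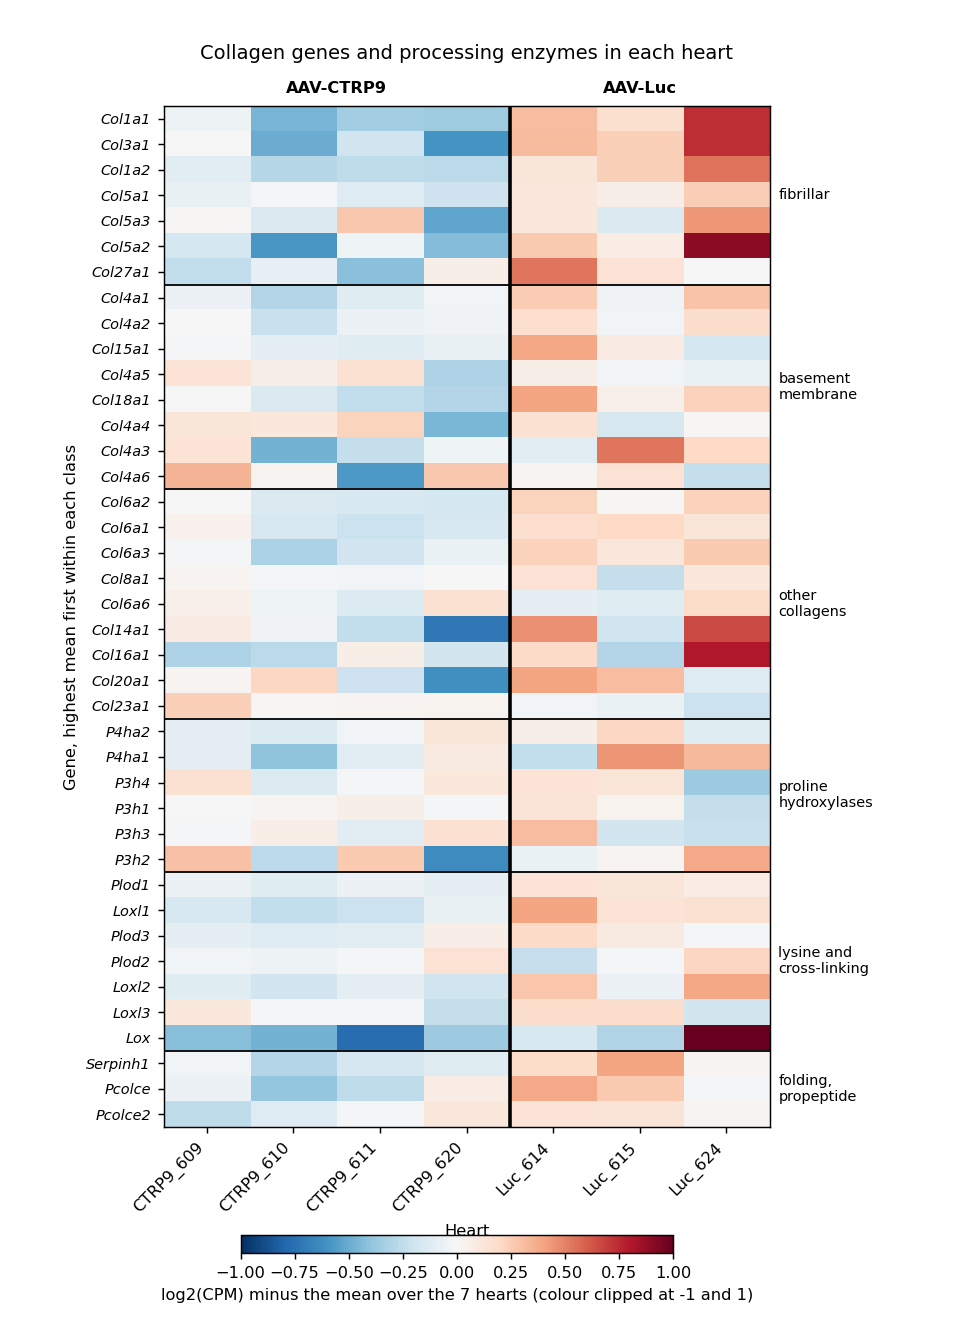
Each row is 1 of the 40 genes, grouped by class, and each column 1 heart, the 4 AAV-CTRP9 hearts left of the 3 AAV-Luc hearts; the colour is log2(CPM) minus the gene's mean over the hearts. Col1a1, Col1a2 and Col3a1 are red in AAV-Luc hearts, most strongly in Luc_624, and white to blue in AAV-CTRP9 hearts, while the proline hydroxylases show no split by group.

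**Figure D2:**
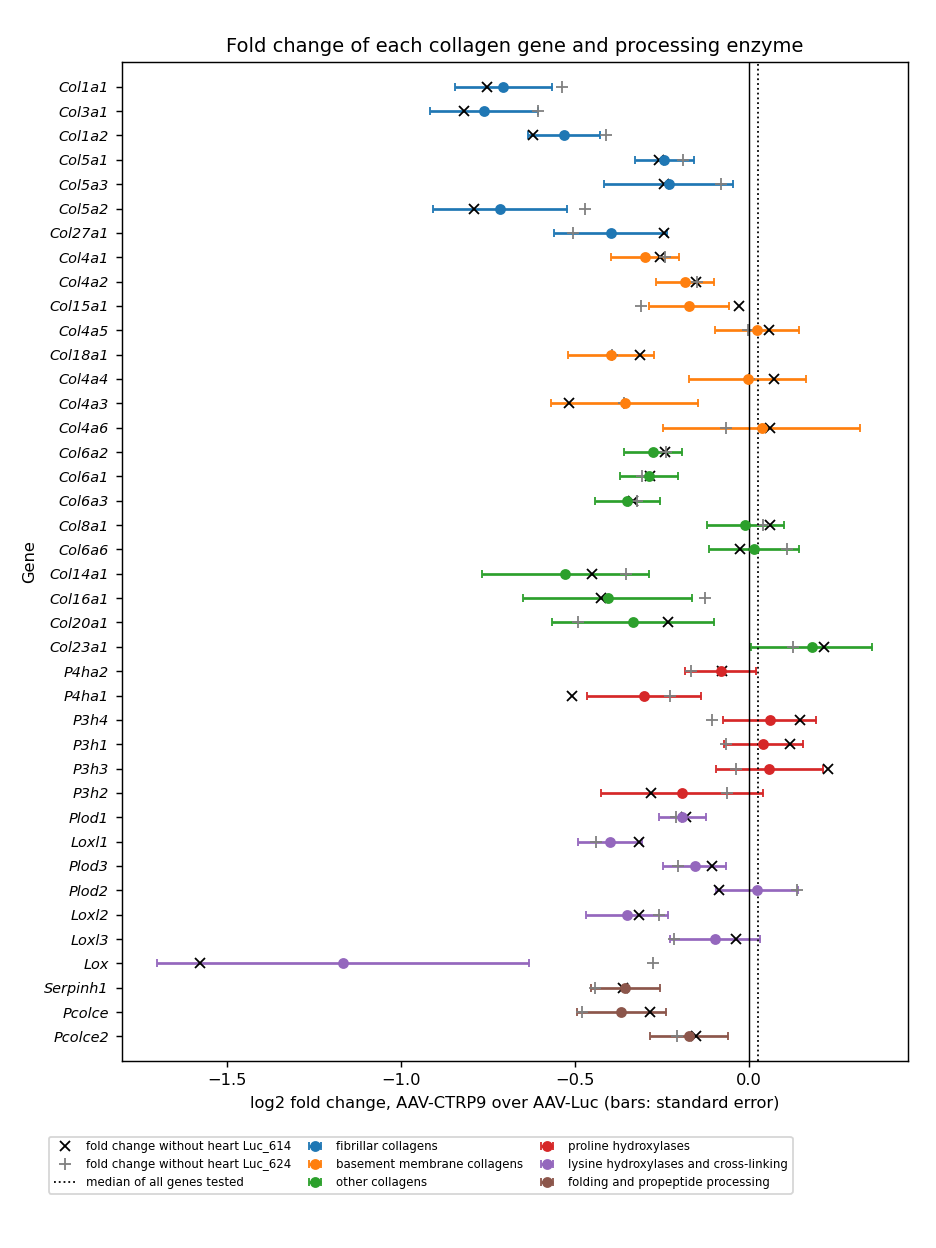
Each point is the log2 fold change of AAV-CTRP9 over AAV-Luc hearts for 1 gene with its standard error, coloured by class; crosses give it without Luc_614 and plus signs without Luc_624. Col1a1, Col3a1 and Col5a2 lie near -0.7, and Lox moves from -1.17 to -0.27 once Luc_624 is left out.

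The fibrillar collagens were the class with the lowest median log2 fold change, -0.53. All 7 had a lower mean in AAV-CTRP9 hearts, 6 of them at an unadjusted p under 0.05, and 5 did not overlap between the groups. Col1a1, Col3a1 and Col5a2, with the oxidase gene Lox, were named by the study as lower matrix genes in these same hearts, so their direction is not independent evidence. By Sirius red staining, the study found no difference in fibrosis between AAV-Luc and AAV-CTRP9 or between WT and KO mice. The RNA values here are therefore not a measure of collagen in the tissue.
Col1a1, the alpha 1 chain of type I collagen, had 55.8, 41.9, 45.4 and 45.2 CPM in AAV-CTRP9 hearts, against 71.6, 64.5 and 96.2 CPM in AAV-Luc hearts. Its log2 fold change was -0.71 ± 0.14 (SE, limma adjusted p = 0.163). Every AAV-CTRP9 heart lay below every AAV-Luc heart, and Luc_624 was the highest of all.
Col1a2, the partner chain of type I collagen, had 41.3, 36.5, 37.2 and 36.8 CPM in AAV-CTRP9 hearts, against 48.4, 52.5 and 64.7 CPM in AAV-Luc hearts. The log2 fold change was -0.53 ± 0.10 (SE, limma adjusted p = 0.163). The AAV-CTRP9 hearts were close together, with an SD of 2.25 CPM, and again none overlapped with AAV-Luc.
Col3a1, the single chain of the type III homotrimer, had 57.1, 40.6, 49.9 and 37.8 CPM in AAV-CTRP9 hearts, against 71.5, 67.7 and 95.8 CPM in AAV-Luc hearts. Its log2 fold change was -0.76 ± 0.16 (SE, limma adjusted p = 0.202). Luc_624 was once more the highest heart.
Without Luc_614 the adjusted p from limma was 0.0127 for Col1a1, 0.00405 for Col1a2 and 0.0147 for Col3a1. Without Luc_624 the log2 fold changes of Col1a1, Col1a2 and Col3a1 were -0.54, -0.41 and -0.61. The 3 abundant fibrillar chains therefore stayed lower when either of these hearts was left out, with adjusted p values of 0.223, 0.223 and 0.284 without Luc_624.

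Type V collagen nucleates type I fibrils and limits their diameter. Its chains are given one by one, and the difference between their fold changes was not tested. Col5a2 had 8.97, 6.79, 9.86 and 7.53 CPM in AAV-CTRP9 hearts, against 12.2, 10.7 and 18.9 CPM in AAV-Luc hearts, for a log2 fold change of -0.72 ± 0.19 (SE, limma adjusted p = 0.392). The groups did not overlap, and the value was -0.47 without Luc_624.
Col5a1 had 25.6, 26.8, 24.6 and 23.3 CPM in AAV-CTRP9 hearts, against 29.1, 28.0 and 32.0 CPM in AAV-Luc hearts, for a log2 fold change of -0.24 ± 0.09 (SE, limma adjusted p = 0.50). Those groups did not overlap either, though the gap between the nearest hearts was small, and the unadjusted p by limma was 0.0527 without Luc_624 in place of 0.0158. For Col5a3, the remaining type V chain, the log2 fold change was -0.23 ± 0.18 (SE), and the groups overlapped. Col27a1, a fibrillar chain best known from cartilage, was at 4.22 ± 0.593 CPM in AAV-CTRP9 hearts (SD, n = 4) and 5.60 ± 1.10 CPM in AAV-Luc hearts (SD, n = 3), with overlapping hearts and a log2 fold change of -0.40 ± 0.16 (SE). Without Luc_614 the log2 fold change of Col27a1 was -0.24, and its unadjusted p by limma was 0.133 in place of 0.0331.
Per kilobase of transcript, type III and type I chains stood well above type V. Col3a1 averaged 8.32 CPM per kilobase in AAV-CTRP9 hearts and 14.1 in AAV-Luc hearts, and Col1a1 averaged 7.94 in AAV-CTRP9 hearts and 13.1 in AAV-Luc hearts. Col5a2 averaged 1.25 CPM per kilobase in AAV-CTRP9 hearts and 2.10 in AAV-Luc hearts.

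**Figure D3:**
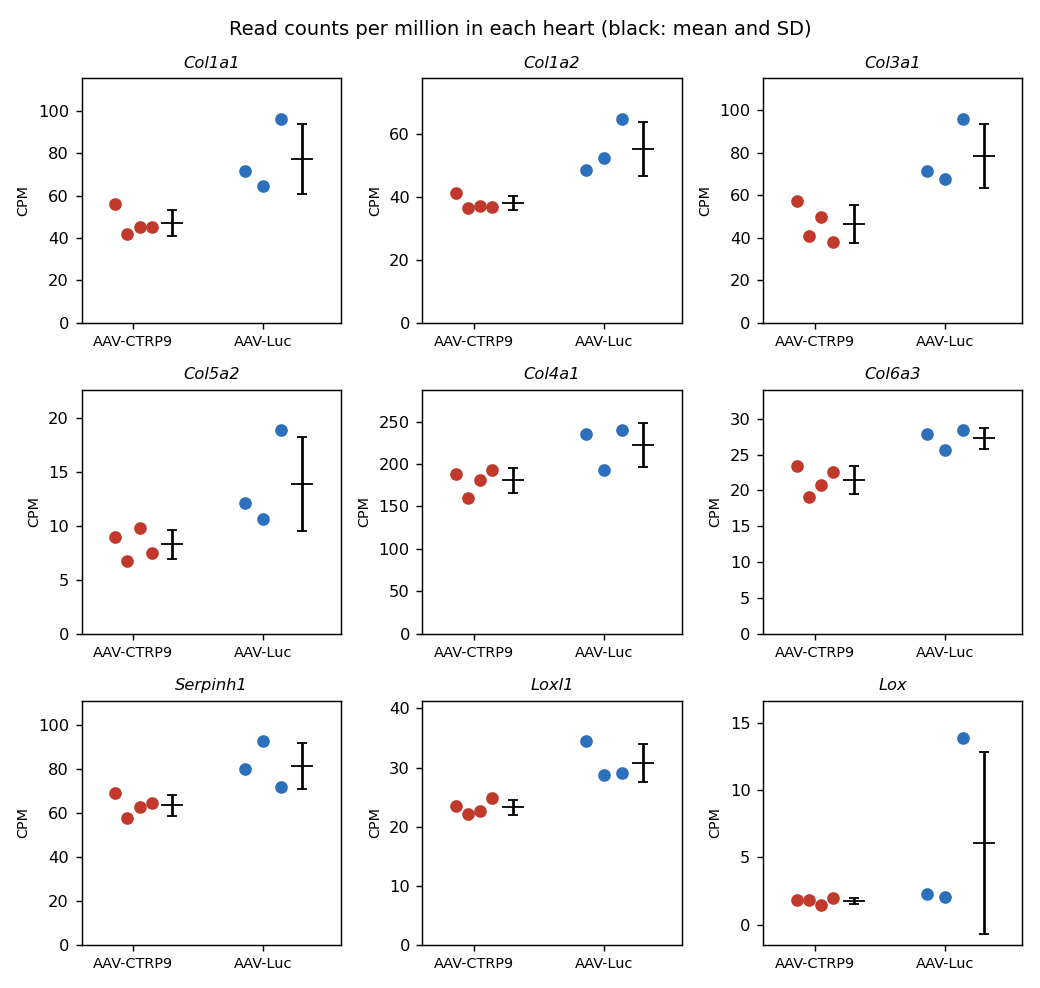
CPM of 9 named genes in each heart, AAV-CTRP9 in red on the left and AAV-Luc in blue on the right of each panel, with the mean and SD in black. The groups do not overlap for Col1a1, Col1a2, Col3a1, Col5a2, Col6a3, Serpinh1, Loxl1 and, narrowly, Lox. In Lox a single AAV-Luc heart at 13.9 CPM stands far above all others.

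The proportions of the fibrillar chains were given by ratios within a heart, which do not depend on library scaling. Col1a1 to Col3a1, per kilobase, was 0.918, 0.969, 0.854 and 1.12 in AAV-CTRP9 hearts and 0.940, 0.894 and 0.942 in AAV-Luc hearts. The ratio averaged 0.966 ± 0.115 in AAV-CTRP9 hearts (SD, n = 4) and 0.925 ± 0.027 in AAV-Luc hearts (SD, n = 3), a difference within the spread of the hearts. Col1a1 to Col1a2 was 1.22, 1.03, 1.10 and 1.11 in AAV-CTRP9 hearts, against 1.33, 1.11 and 1.34 in AAV-Luc hearts. These overlapped, so the balance of types I and III and of the type I chains was not separated between the groups.

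The basement membrane collagens held the most reads of any class, with summed levels of 437, 380, 418 and 428 CPM in AAV-CTRP9 hearts and 523, 441 and 502 CPM in AAV-Luc hearts. Of the 8 genes, 6 had a log2 fold change below 0, Col4a4 among them at -0.0030, and 3 were lower in AAV-CTRP9 hearts at an unadjusted p under 0.05, and the class median log2 fold change was -0.18. Without Luc_614 that median was -0.09.
Col4a1, the alpha 1 chain of the type IV network, had 188, 160, 181 and 193 CPM in AAV-CTRP9 hearts, against 235, 193 and 240 CPM in AAV-Luc hearts. Its log2 fold change was -0.30 ± 0.10 (SE, limma adjusted p = 0.465). Only the highest AAV-CTRP9 heart, CTRP9_620, reached the lowest AAV-Luc heart, Luc_615.
Col4a2, its partner in the network, had 161, 138, 155 and 157 CPM in AAV-CTRP9 hearts, against 181, 158 and 182 CPM in AAV-Luc hearts, for a log2 fold change of -0.18 ± 0.08 (SE, limma adjusted p = 0.574). The groups overlapped through CTRP9_609 and Luc_615, and the unadjusted p of 0.0491 by limma became 0.0909 without Luc_614 and 0.106 without Luc_624. Col4a1 and Col4a2 are transcribed head to head on chromosome 8, from RefSeq starts at 11312826 on the minus strand and 11312805 on the plus strand, so the first 22 bases lie over each other.
The ratio of Col4a1 to Col4a2, per kilobase, was 1.14, 1.13, 1.14 and 1.19 in AAV-CTRP9 hearts, against 1.27, 1.19 and 1.28 in AAV-Luc hearts. It averaged 1.15 ± 0.029 in AAV-CTRP9 hearts (SD, n = 4) and 1.24 ± 0.052 in AAV-Luc hearts (SD, n = 3), with CTRP9_620 just above Luc_615. This ratio was not tested.
Col18a1, whose C-terminal fragment is endostatin, had 6.22, 5.63, 5.26 and 5.09 CPM in AAV-CTRP9 hearts, against 8.20, 6.46 and 7.33 CPM in AAV-Luc hearts. It was the member of this class without overlap, at a log2 fold change of -0.40 ± 0.12 (SE, limma adjusted p = 0.450). Col15a1, its relative around capillaries and muscle cells, had a log2 fold change of -0.17 ± 0.11 (SE), which was -0.03 without Luc_614 and -0.31 without Luc_624. The tissue-restricted chains Col4a3 to Col4a6, best known from kidney, were low and ran from -0.36 to 0.04 on the log2 scale, and Col4a3 was at -0.52 without Luc_614 (limma unadjusted p = 0.0308).

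Among the other collagens, the 3 abundant type VI chains were lower together in AAV-CTRP9 hearts. Col6a2 had 57.8, 52.1, 51.8 and 51.2 CPM in AAV-CTRP9 hearts, against 67.5, 58.3 and 67.7 CPM in AAV-Luc hearts, for a log2 fold change of -0.28 ± 0.08 (SE, limma adjusted p = 0.426).
Col6a1 had 40.1, 34.9, 33.6 and 34.9 CPM in AAV-CTRP9 hearts, against 43.8, 44.7 and 42.4 CPM in AAV-Luc hearts, for a log2 fold change of -0.29 ± 0.08 (SE, limma adjusted p = 0.400).
Col6a3 had 23.4, 19.0, 20.8 and 22.6 CPM in AAV-CTRP9 hearts, against 27.9, 25.6 and 28.4 CPM in AAV-Luc hearts, for a log2 fold change of -0.35 ± 0.09 (SE, limma adjusted p = 0.392).
For all 3 chains, which assemble into one monomer, every AAV-CTRP9 heart lay below every AAV-Luc heart, and the log2 fold changes stayed between -0.40 and -0.21 in every setting run. Col6a2 has a second transcript row, at a mean of 23.3 CPM, whose log2 difference was -0.05. Of the 9 other collagens, the remaining 6 did not reach an unadjusted p under 0.05, with log2 fold changes from -0.53 (Col14a1) to 0.18 (Col23a1). Col23a1, a transmembrane collagen, was the member higher without overlap, at 2.03, 1.73, 1.75 and 1.77 CPM in AAV-CTRP9 hearts and 1.69, 1.64 and 1.48 CPM in AAV-Luc hearts. It is named because of these values, rests on 39 to 51 reads per heart and had an adjusted p of 0.793 from limma.

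The genes of the proline hydroxylase families had a median log2 fold change of -0.02, and 0 of 6 were at an unadjusted p under 0.05 by limma. P4ha1, a catalytic subunit of the enzyme that makes the helix-stabilising 4-hydroxyproline, had 17.7, 14.3, 17.5 and 20.1 CPM in AAV-CTRP9 hearts, against 16.0, 25.6 and 23.6 CPM in AAV-Luc hearts. Its log2 fold change was -0.30 ± 0.16 (SE, limma adjusted p = 0.623). Luc_614 was low among the AAV-Luc hearts, and without it the log2 fold change was -0.51 with an adjusted p of 0.0497. Removing the GC and length trend as well gave 0.0591.
P4ha2, the second such subunit, was at 19.9 ± 1.63 CPM in AAV-CTRP9 hearts (SD, n = 4) and 21.1 ± 2.37 CPM in AAV-Luc hearts (SD, n = 3), for a log2 fold change of -0.08 ± 0.10 (SE). P3h4, a relative of the prolyl 3-hydroxylases that acts in a complex with them, was at 14.8 ± 1.31 CPM in AAV-CTRP9 hearts (SD, n = 4) and 14.4 ± 2.67 CPM in AAV-Luc hearts (SD, n = 3), a log2 fold change of 0.06 ± 0.13 (SE). Without Luc_624 the value of P3h4 turned to -0.11. P3h1, P3h2 and P3h3 ran from -0.19 to 0.06 on the log2 scale.

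Of the 7 lysine hydroxylases and cross-linking oxidases, 6 had a lower mean in AAV-CTRP9 hearts, and 3 of them were lower at an unadjusted p under 0.05. Plod1, which hydroxylates helical lysines, had 49.1, 47.0, 49.2 and 48.0 CPM in AAV-CTRP9 hearts, against 56.1, 55.5 and 54.0 CPM in AAV-Luc hearts. The log2 fold change was small but the hearts were tight, -0.19 ± 0.07 (SE, limma adjusted p = 0.50). Plod3, which also glycosylates hydroxylysine, was at 16.6 ± 1.04 CPM in AAV-CTRP9 hearts (SD, n = 4) and 18.5 ± 1.28 CPM in AAV-Luc hearts (SD, n = 3), with overlap.
Loxl1, a lysyl oxidase best known for elastic fibres, had 23.4, 22.1, 22.6 and 24.9 CPM in AAV-CTRP9 hearts, against 34.4, 28.8 and 29.0 CPM in AAV-Luc hearts. The log2 fold change of -0.40 ± 0.09 (SE, limma adjusted p = 0.270) had the smallest adjusted p of the enzyme genes in this test, with no overlap. DESeq2 gave Loxl1 an adjusted p of 0.0237. Loxl2, a cross-linker of type IV collagen, had 8.21, 7.82, 8.35 and 7.74 CPM in AAV-CTRP9 hearts, against 10.8, 8.56 and 11.7 CPM in AAV-Luc hearts, for a log2 fold change of -0.35 ± 0.12 (SE, limma adjusted p = 0.476). Without Luc_624 it was -0.26, and the unadjusted p by limma was 0.0606 in place of 0.0133.
Lox, the main oxidase of fibrillar collagen, had 1.86, 1.80, 1.47 and 1.94 CPM in AAV-CTRP9 hearts, against 2.25, 2.03 and 13.9 CPM in AAV-Luc hearts. Its log2 fold change of -1.17 was the largest of all members, but with a standard error of 0.53 and an adjusted p of 0.575 from limma. Luc_624 alone carried it: the log2 fold change of Lox was -0.27 without that heart and -1.58 without Luc_614 (limma unadjusted p = 0.00455). Lox rested on 42 reads in its lowest heart and 365 in its highest. The groups did not overlap for Lox, but only narrowly, with 1.94 CPM in the highest AAV-CTRP9 heart and 2.03 CPM in the lowest AAV-Luc heart.

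Serpinh1 encodes HSP47, the collagen-specific chaperone. It had 68.9, 57.5, 62.6 and 64.7 CPM in AAV-CTRP9 hearts, against 80.1, 92.5 and 71.6 CPM in AAV-Luc hearts, for a log2 fold change of -0.35 ± 0.10 (SE, limma adjusted p = 0.398). The groups did not overlap, and here Luc_615 was the highest heart. Pcolce, which enhances cleavage of the procollagen C-propeptide, had 24.7, 19.6, 21.5 and 26.9 CPM in AAV-CTRP9 hearts, against 33.3, 30.8 and 25.4 CPM in AAV-Luc hearts, for a log2 fold change of -0.37 ± 0.13 (SE, limma adjusted p = 0.50). CTRP9_620 and Luc_624 overlapped. Pcolce2, a second enhancer, was at 7.31 ± 0.783 CPM in AAV-CTRP9 hearts (SD, n = 4) and 8.21 ± 0.339 CPM in AAV-Luc hearts (SD, n = 3). Of the 28 further transcript rows of 17 members, all 28 had the same sign as the row used, though many share the same reads.

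By heart, the class medians showed where the groups separated. The median deviation of the 7 fibrillar genes, in log2 CPM from each gene's mean, was -0.07, -0.28, -0.20 and -0.35 in AAV-CTRP9 hearts and 0.26, 0.14 and 0.54 in AAV-Luc hearts. That of the 7 lysine and cross-linking genes was between -0.13 and -0.09 in AAV-CTRP9 hearts and between 0.09 and 0.17 in AAV-Luc hearts. The proline hydroxylase families gave -0.14 to 0.09 in AAV-CTRP9 hearts and -0.17 to 0.09 in AAV-Luc hearts, and the classes of basement membrane collagens, other collagens, and folding and propeptide processing also overlapped.
Summed over all 24 collagens, AAV-CTRP9 hearts held 786, 676, 730 and 722 CPM, against 940, 829 and 995 CPM in AAV-Luc hearts. All AAV-CTRP9 hearts were below all AAV-Luc hearts in this sum, to which the basement membrane class contributed the most reads.

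**Figure D4:**
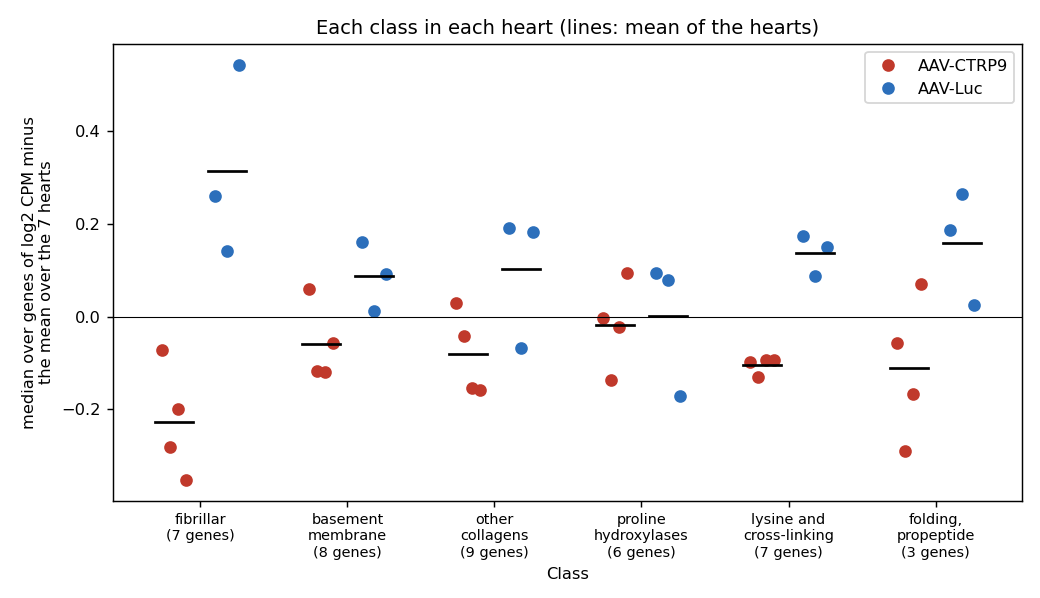
Each point is 1 heart: the median over a class's genes of the deviation in log2 CPM from the gene's mean over the hearts, AAV-CTRP9 in red left of AAV-Luc in blue, with a line at the mean of the hearts. Fibrillar collagens separate between -0.07 and 0.14, and lysine hydroxylases and cross-linking between -0.09 and 0.09, while the proline hydroxylases overlap.

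The wider collagen pathway was read from a list of 47 further genes for folding, trimming, receptors, turnover and fibril-associated proteins, of which 39 were measured. By limma 0 passed an adjusted p under 0.05. At an unadjusted p under 0.05, 9 were lower in AAV-CTRP9 hearts and 0 were higher, against 4.36% and 4.30% of all genes. Among these, Fn1 had 73.4 CPM in Luc_624, against 26.6 and 28.4 CPM in Luc_614 and Luc_615 and 22.1 to 27.1 CPM in AAV-CTRP9 hearts. Thbs1 (5.20 CPM against 2.41 and 2.68) and Itga11 (4.52 CPM against 2.84 and 2.61) also stood highest in Luc_624 among AAV-Luc hearts. Mmp2, Adamts2 and Tgfb3 were instead highest in Luc_614. The count without Luc_624 is not given. The list's median log2 fold change was -0.12. The 4 with the smallest p were as follows.
Mmp2, a gelatinase, had 32.1, 29.3, 26.2 and 29.5 CPM in AAV-CTRP9 hearts, against 40.9, 38.4 and 38.5 CPM in AAV-Luc hearts, for a log2 fold change of -0.43 ± 0.09 (SE, limma adjusted p = 0.181). Bgn, the proteoglycan biglycan that sits on fibrils, was at -0.42 ± 0.10 (SE, limma adjusted p = 0.289). Sparc, a collagen-binding matrix protein, was at -0.40 ± 0.10 (SE, limma adjusted p = 0.358). Adamts2, which removes the N-propeptide of fibrillar procollagens, was at -0.56 ± 0.15 (SE, limma adjusted p = 0.392).
The general folding enzymes P4hb and Ppib, which serve many proteins beside collagen, were at -0.06 and 0.01 on the log2 scale, and the small proteoglycan Dcn at -0.03. Without Luc_614, by DESeq2 and by the likelihood ratio test Mmp2 passed an adjusted p under 0.05, and Bgn passed by DESeq2 and by the likelihood ratio test.

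Marker genes of other cells moved with the comparison. Of 10 fibroblast markers, 5 were lower in AAV-CTRP9 hearts at an unadjusted p under 0.05 and 0 higher, against 4.36% and 4.30% of all genes. The median log2 fold change of the fibroblast markers was -0.26. Lum, Dcn and Mmp2 stand in this list and in the pathway list. The summed fibroblast markers overlapped, at 771 to 849 CPM in AAV-CTRP9 hearts and 766 to 941 CPM in AAV-Luc hearts. This sum mostly follows Gsn, which averaged 463 CPM in AAV-CTRP9 hearts and 483 CPM in AAV-Luc hearts. Gsn had 376 CPM in Luc_624, against 521 CPM in Luc_614 and 552 CPM in Luc_615, so the overlap says little of the less abundant markers. The fibroblast receptor Pdgfra was at 0.13 and the fibroblast transcription factor Tcf21 at -0.09 on the log2 scale. Cd248 of this list and the macrophage gene Lyz2 were the 2 genes that passed the adjusted threshold, both lower in AAV-CTRP9 hearts. Of 10 macrophage and leukocyte markers, 9 had a log2 fold change below 0 and 7 were lower at an unadjusted p under 0.05, and their sum was 115 to 122 CPM in AAV-CTRP9 hearts and 165 to 172 CPM in AAV-Luc hearts. All 10 cardiomyocyte markers had a log2 fold change above 0, with a median of 0.20, and 2 were higher at an unadjusted p under 0.05. Their sum was 25327 to 26221 CPM in AAV-CTRP9 hearts and 20919, 24529 and 22516 CPM in Luc_614, Luc_615 and Luc_624. Among AAV-Luc hearts, Luc_614 was lowest for some of these genes, such as Ryr2 (309 CPM, against 620 and 580 CPM), and highest for others, such as Tnni3. Ryr2 had 527 to 652 CPM in AAV-CTRP9 hearts. The cardiomyocyte fold changes are not given without Luc_614. Endothelial markers summed to 540 to 560 CPM in AAV-CTRP9 hearts and 539 to 587 CPM in AAV-Luc hearts, with 2 of 10 lower and 1 higher at this unadjusted p. Smooth muscle and pericyte markers overlapped in sum, with 1 of 9 lower at this unadjusted p. The part of these shifts in the collagen values was not tested. Of the adipocyte markers 0 of 5 were measured, and of the chondrocyte markers 1 of 5.

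The KO table lists only transcripts that the authors' own test put at p under 0.05, so the members in it are described and not tested, and nothing is said of the other 37. The 3 listed members, Col1a1, Col6a3 and Plod1, were all lower in KO hearts, as were 61.1% of all listed genes. The listing itself sets how many pass a refit: by edgeR's quasi-likelihood test 93.5% of the listed genes did, these 3 among them.
Col1a1 had 947, 1444, 1294 and 1144 normalized read counts in KO hearts, against 1432, 1479 and 1668 in WT hearts. It averaged 1207 ± 212 in KO hearts (SD, n = 4) and 1526 ± 125 in WT hearts (SD, n = 3), for a log2 fold change of -0.34 ± 0.12 (SE). The hearts overlapped through KO2, which lay above WT1.
Col6a3 had 346, 466, 476 and 337 normalized read counts in KO hearts, against 469, 451 and 647 in WT hearts, for a log2 fold change of -0.36 ± 0.15 (SE). WT4 was far above the rest, and without it the value was -0.18.
Plod1 had 1170, 1274, 1175 and 1210 normalized read counts in KO hearts, against 1376, 1338 and 1341 in WT hearts. Its log2 fold change was only -0.16 ± 0.07 (SE), but every KO heart lay below every WT heart, which held for 38.9% of the listed genes.
Without WT1 the log2 fold changes of Col1a1, Col6a3 and Plod1 were -0.38, -0.43 and -0.15, and without WT3 they were -0.36, -0.46 and -0.17. With library totals as the only scaling they were -0.29, -0.32 and -0.12, and with factors from the upper quartile of listed genes -0.19, -0.22 and -0.01. Plod1 was thus close to no difference under the last scaling. The median GC content was 55.2% for listed genes lower in KO hearts and 46.4% for those higher, and the transcripts of Col1a1, Col6a3 and Plod1 had 58.9%, 54.5% and 56.3%. The part of GC content in their values was not tested.

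**Figure D5:**
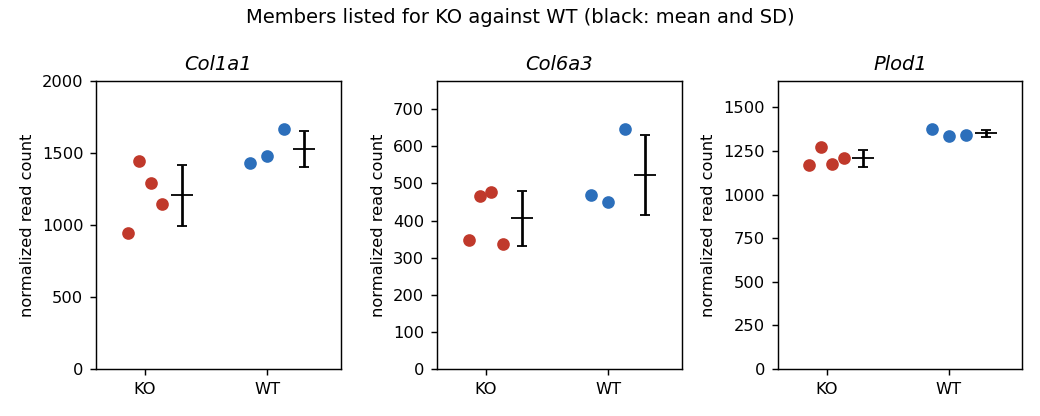
Normalized read counts of the 3 members listed for KO against WT, KO in red on the left and WT in blue on the right, with the mean and SD in black. All 3 averages are lower in KO hearts, and Plod1 is the one without overlap.

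The 3 genes can be set side by side across the experiments, which share no hearts. Col1a1 was at -0.71 in AAV-CTRP9 over AAV-Luc hearts and -0.34 in KO over WT hearts on the log2 scale. Col6a3 was at -0.35 in AAV-CTRP9 over AAV-Luc hearts and -0.36 in KO over WT hearts. Plod1 was at -0.19 in AAV-CTRP9 over AAV-Luc hearts and -0.16 in KO over WT hearts. All 3 values were below 0 both with added CTRP9 and without CTRP9. The difference between the experiments was not tested, since the KO genes were listed for their difference. Of the 47 pathway genes, 6 were listed for KO. Fmod, a small proteoglycan that binds fibrils, was at -1.17, the adhesive matrix protein gene Fn1 at -0.38, the procollagen C-proteinase gene Bmp1 at -0.38, the matricellular protein gene Ccn2 at -0.40 and the growth factor gene Tgfb2 at -0.47 on the log2 scale. Itgb1, a subunit of collagen-binding integrins, was at 0.25 and so higher in KO hearts. In AAV-CTRP9 over AAV-Luc hearts Fn1 was at -0.68 ± 0.28, Bmp1 at -0.03 ± 0.08 and Ccn2 at -0.14 ± 0.22 (SE). There Tgfb2 was at 0.16 ± 0.10 and Itgb1 at 0.02 ± 0.10 (SE), and Fmod was not measured. Tgfb2 thus had opposite signs in the experiments.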

How the data were processed

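Strand-specific mRNA libraries of whole hearts were read as single-ended 50-base reads, and the authors aligned them to mm10 with Bowtie2. For the AAV hearts the authors deposited log2 CPM per transcript (edgeR). Subtracting the prior count of 1 returned whole reads for 100% of 181930 values within 0.001. For KO and WT the authors deposited read counts, with a pooled mean count (signal), a summed RPKM and a p-value (used only to see the listing limit), for transcripts their test put below 0.05. Size factors and library totals were solved from these columns. Columns of the authors' own fold changes, adjusted p-values and gene annotations were not used. A further 14 per-sample columns were not used. The KO and WT columns name a group and a number but not the animal.

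The row with the highest mean stood for each of 13219 symbols (AAV) and 1230 (KO). limma 3.58.1 with a mean trend and Benjamini-Hochberg adjustment tested AAV-CTRP9 against AAV-Luc. edgeR 4.0.16 quasi-likelihood gave the KO values, as description. Alternatives included DESeq2 1.42.0. The reads of a transcript can be shared with other transcripts of its gene. GC content, length and sequences came from GENCODE M21 on GRCm38. The fits were tested on simulated data. Members and lists were chosen with earlier results of these data known. Named genes were the members listed for KO, each member at an unadjusted p under 0.05, the 3 with the highest mean CPM of each class, Col1a1, Col3a1, Col5a2 and Lox, and the 4 pathway genes of smallest p. The labels do not say outright that each library is a separate animal, so p-values measure only the spread between these libraries. Members had between 18 and 7115 reads per AAV library.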

Additional observations from a re-analysis of the deposited data

Results flagged for a closer look

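In 4 of the 43 groups of 4 hearts examined, 1 heart stood apart from the others by Dixon's test at its 95% critical value, and chance flags about 1 in 20 groups. Among AAV-CTRP9 hearts CTRP9_609 was the highest for Col1a2 (41.3 CPM against 36.5 to 37.2, Dixon ratio 0.862), for Col6a2 (57.8 CPM against 51.2 to 52.1, ratio 0.868) and for Col23a1 (2.03 CPM against 1.73 to 1.77, ratio 0.888). CTRP9_620 was the highest for Plod3 (18.2 CPM against 15.9 to 16.3, ratio 0.841). In each of these genes but Col23a1 and Plod3 the flagged heart still lay below every AAV-Luc heart.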

How the results depend on the processing

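The labels share no replicate numbers between AAV-CTRP9 and AAV-Luc, so no replicate block was fitted there. KO and WT column names share 3 numbers, which nothing ties to a litter or day, and libraries of the same number did not all deviate together (r = 0.14, -0.13 and -0.34 over 1230 genes). With that number as a replicate block, added after the data were seen, 458 of 1230 listed genes and 1 of the 3 members, Col1a1, passed. Of the 40 members, 0 passed an adjusted p under 0.05 in the main limma test and at an adjusted p under 0.1. This count was 5 by the edgeR likelihood ratio test (added after the data were seen), 4 by DESeq2, 3 with the GC and length trend removed and Luc_614 left out, and between 0 and 4 when 1 heart was left out, the 4 being without Luc_614; in other settings it was 0. The count lower at an unadjusted p under 0.05 stayed between 15 and 20, with 0 higher. The members' median log2 fold change was between -0.31 and -0.22 when 1 heart was left out. P3h4 turned to -0.11 without Luc_624, its values being between -0.11 and 0.15 when 1 heart was left out. The KO genes were listed for their p, so passing a refit is set by that choice: 1150 of 1230 listed genes (93.5%) passed, with all 3 members. Of the 3, 0 passed with library totals (955 listed genes passed), 0 with upper quartile factors (617), 0 by DESeq2 (632), and between 0 and 2 when 1 heart was left out; the cause was not tested. Lox has no adjusted p from DESeq2. Low members such as Col4a6 and Lox are limited by 18 to 42 reads in their lowest heart.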
